A study of Mus musculus and Homo sapiens with 56 samples.

Results

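When the m6A peaks of 6 lists from HEK293T cells were joined wherever they shared at least 1 bp, they formed 28815 regions, and 7239 of these regions (25.1%) were covered by peaks of a single list. These single-list regions are described here. They were chosen by which lists held a peak, so their low enrichment and narrow width follow in part from the choice and are given as a description without a test. Of the other regions, 3597 were held by 2 lists, 2577 by 3, 2284 by 4, 2570 by 5 and 10548 by all 6 lists.

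The lists came from HEK293T, a human embryonic kidney line, after lentiviral infection with a short hairpin RNA and puromycin selection. There were 3 groups of 2 lists each: cells with a hairpin against ALKBH5 (shALKBH5), cells with a hairpin against FTO (shFTO), and cells with a hairpin against GFP (shGFP) as the control. All 3 groups carried a hairpin and went through selection. RNA from chromatin was fragmented and precipitated with an antibody against m6A, and each list belongs to 1 immunoprecipitated and 1 input sample, 12 of the 56 samples of the series. Whether replicates 1 and 2 were separate cultures, infections or clones is not given in the labels, so tests between groups measure the spread between these lists, which may be technical. The level of ALKBH5 and FTO after knockdown was not analysed here. The series also holds mouse embryonic stem cell samples, which were not used here, and its design text names m6A and the repressive histone mark H3K9me2.

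N6-methyladenosine (m6A) is the most common internal modification of messenger RNA and is also found on chromatin-associated and other non-coding RNA. It is written by a complex around METTL3 and METTL14 while RNA is made, is bound by proteins with a YTH domain, and can be removed by the demethylases ALKBH5 and FTO. FTO also acts on a related modified base next to the cap of messenger RNA. In m6A immunoprecipitation a peak marks a stretch of RNA recovered more often with the antibody than in the input. It does not resolve the modified base, and whether a weak site passes the threshold of a peak caller varies between repeats.

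The lists differed in length. They held 16211 and 20665 peaks in shALKBH5 replicates 1 and 2, 16305 and 22219 peaks in shFTO replicates 1 and 2, and 19720 and 18745 peaks in shGFP replicates 1 and 2. The files hold peaks but no read counts, so the sequencing depth behind a peak is unknown.

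Single-list regions were spread very unevenly over the lists, and the replicates of a knockdown differed more than the groups did. shALKBH5 replicates 1 and 2 held 596 and 1434 of them, shFTO replicates 1 and 2 held 420 and 2233, and shGFP replicates 1 and 2 held 1400 and 1156. The shFTO group thus had both the fewest and the most, and the control lists lay between. As a share of the regions in each list, single-list regions made up 3.88% (exact Clopper-Pearson 95% interval 3.58 to 4.20%) and 7.43% (7.06 to 7.81%) in shALKBH5 replicates 1 and 2. The share was 2.8% (2.54 to 3.07%) and 10.4% (10.0 to 10.8%) in shFTO replicates 1 and 2. In shGFP replicates 1 and 2 it was 7.58% (7.20 to 7.97%) and 6.46% (6.11 to 6.83%). These intervals cover counting error only, and the intervals of the replicates of a group did not overlap in any of the 3 groups.

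**Figure D1:**
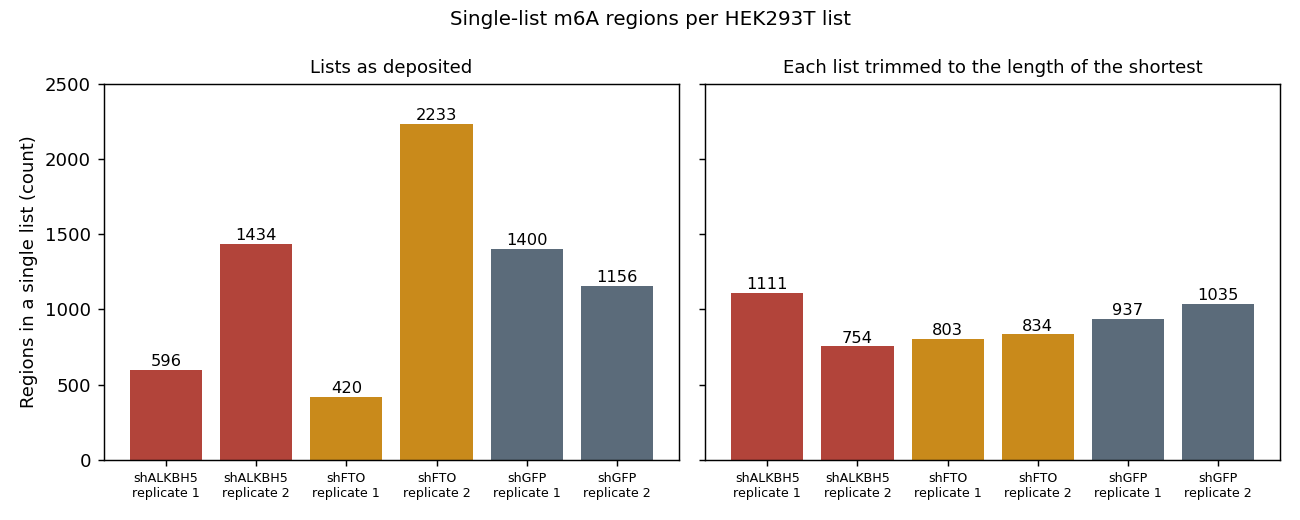
Number of single-list regions in each list (bars, count), with the lists as deposited (left) and with every list trimmed to its 16211 top-ranked peaks (right). As deposited the lists run between 420 and 2233, and at equal length between 754 and 1111. The trimming left shALKBH5 replicate 1, which has 16211 peaks, unchanged.

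By group, shALKBH5 lists held 2030 single-list regions (28.0% of all 7239), shFTO lists 2653 (36.6%) and shGFP lists 2556 (35.3%). The mean per list was 1015 ± 593 in shALKBH5, 1326.5 ± 1282 in shFTO and 1278 ± 173 in shGFP (SD, n = 2 lists each). No group difference exceeded the SD of either knockdown group, though that between shALKBH5 and shGFP was larger than the SD of shGFP. shALKBH5 lists held 263 fewer than shGFP lists on average, and shFTO lists held 48.5 more, each with p = 1 in a two-sided exact permutation test over lists. With 2 lists against 2 the smallest p this test can give is 0.333, so no difference between groups could pass a threshold of 0.05. Single lists set the sign of these differences: shFTO minus shGFP was -1070.5 without shFTO replicate 2, 1097.5 without shFTO replicate 1 and -187.5 without shGFP replicate 2, and shALKBH5 minus shGFP was 156.5 without shALKBH5 replicate 1. Here and below, leaving out a list also redefined single-list regions as those in exactly 1 of the remaining lists.

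The number of single-list regions largely followed the length of the list. The list with the most peaks, shFTO replicate 2, held the most, and the lists with the fewest peaks, shALKBH5 replicate 1 and shFTO replicate 1, held the fewest. When every list was limited to the same 16211 peaks of smallest q, single-list regions numbered 1111 and 754 in shALKBH5 replicates 1 and 2, 803 and 834 in shFTO replicates 1 and 2, and 937 and 1035 in shGFP replicates 1 and 2. The order changed: shALKBH5 replicate 1, second lowest as deposited, then held the most, and shFTO replicate 2, highest as deposited, stood in the middle. The limit of 16211 is the full length of shALKBH5 replicate 1, so this list lost no peaks and its count could not fall. The other lists lost their peaks of largest q, so the change of order follows in part from the trimming. On average shALKBH5 lists minus shFTO lists came to 114 single-list regions at equal length and to -311.5 as deposited (exact permutation p = 1 for both).

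Peaks of single-list regions were weak in all 6 lists. The authors' fold enrichment at the peak summit had a median of 4.93 and 5.0 in shALKBH5 replicates 1 and 2, 5.26 and 5.49 in shFTO replicates 1 and 2, and 5.0 and 5.37 in shGFP replicates 1 and 2. In 6-list regions the same lists had medians of 10.4 and 11.9 for shALKBH5, 10.5 and 12.2 for shFTO, and 11.2 and 10.7 for shGFP. The ratio of the medians, single-list over 6-list, was 0.466 ± 0.034 (SD, n = 6 lists) and ranged between 0.419 and 0.505. Very few single-list peaks reached the median enrichment of the 6-list peaks in their own list: 2 and 5 in the shALKBH5 lists, 0 and 6 in the shFTO lists, and 0 and 2 in the shGFP lists.

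The regions just outside the rule, those in 2 lists, were only slightly stronger. Median fold enrichment of 2-list peaks was 5.0 and 5.66 in shALKBH5 replicates 1 and 2, 5.28 and 5.94 in shFTO replicates 1 and 2, and 5.56 and 5.62 in shGFP replicates 1 and 2. In every list the single-list median was below the 2-list median, by a small margin in shALKBH5 replicate 1 and shFTO replicate 1.

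Single-list regions were also narrow. Their median width was 300 bp in both shALKBH5 lists, 278 and 308 bp in shFTO replicates 1 and 2, and 299 and 309 bp in shGFP replicates 1 and 2. Peaks of 6-list regions had median widths of 647 and 689 bp in shALKBH5, 574 and 752 bp in shFTO, and 649 and 691 bp in shGFP, so that the single-list median was 0.450 ± 0.026 of the 6-list one (SD, n = 6 lists). The 2-list peaks lay close to the single-list ones, with medians of 328.5 and 340 bp in shALKBH5, 282 and 346 bp in shFTO, and 328 bp in both shGFP lists.

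Much of this width was the shortest peak a list contains. The shortest peaks measured 294 and 295 bp in the shALKBH5 lists, 277 bp in both shFTO lists, and 291 and 282 bp in the shGFP lists. Among single-list peaks, 53.4% and 55.1% in shALKBH5 replicates 1 and 2, 61.9% and 39.6% in shFTO replicates 1 and 2, and 51.7% and 40.5% in shGFP replicates 1 and 2 were within 10 bp of that minimum. Among 2-list peaks the share lay between 27.4 and 55.3%, and among 6-list peaks between 1.52 and 6.68%. Many single-list peaks also carried an identical enrichment value: the most common value was shared by 13.4% and 17.6% of single-list peaks in the shALKBH5 lists, 11.2% and 8.51% in the shFTO lists, and 12.1% and 2.08% in the shGFP lists. In 6-list peaks that same value was held by at most 0.917% in any list.

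**Figure D2:**
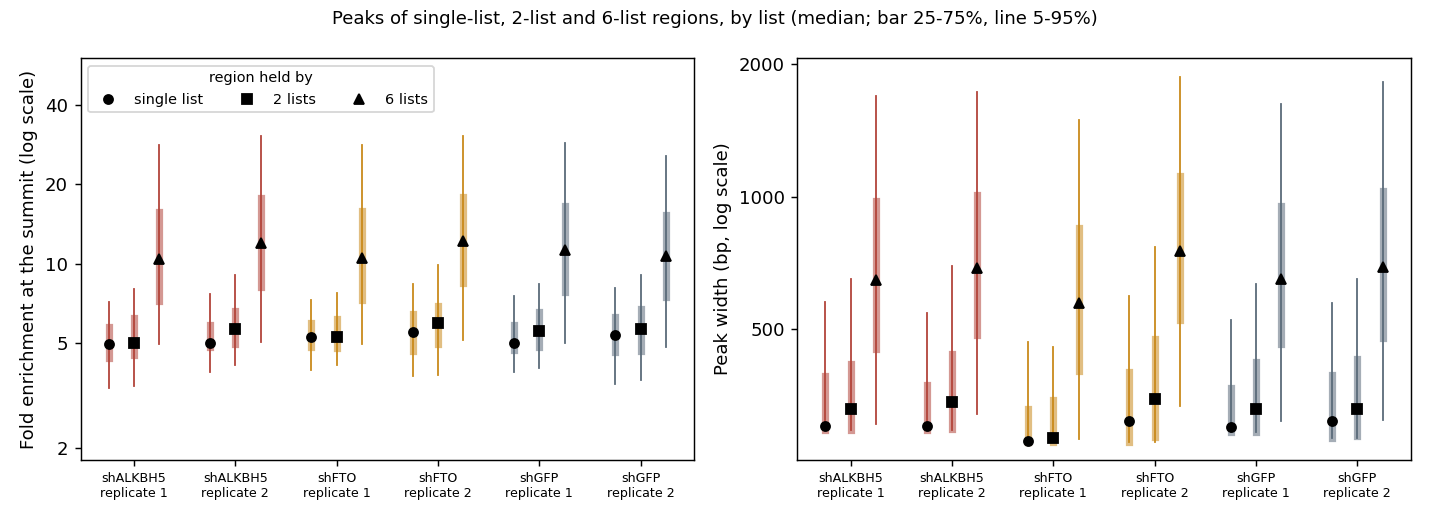
Fold enrichment at the summit (left, log axis) and peak width in bp (right, log axis) for peaks of single-list (circles), 2-list (squares) and 6-list (triangles) regions in each list. Symbols are medians, thick bars the middle of the values (25 to 75%) and thin lines 5 to 95%; single-list medians lie between 4.93 and 5.49 in enrichment, against 10.4 to 12.2 for 6-list peaks.

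Between groups, the medians of single-list peaks differed little. Median fold enrichment averaged 4.97 ± 0.05 in shALKBH5, 5.37 ± 0.16 in shFTO and 5.19 ± 0.27 in shGFP (SD, n = 2 lists each). In replicate 1 of each group the median was itself the most common enrichment value of the list (4.93, 5.26 and 5.0). Small differences between such medians may reflect these shared values. The 2 shALKBH5 lists lay below both shFTO lists, with a difference of means of -0.41, the smallest exact permutation p of the family at 0.333 (1 after Benjamini-Hochberg adjustment over 15 contrasts). The shALKBH5 lists differed by -0.22 and the shFTO lists by 0.19 from the shGFP lists (exact permutation p = 0.667 each). Median width averaged 300 bp in shALKBH5, 293 bp in shFTO and 304 bp in shGFP, and no contrast of width had an exact permutation p below 0.667. The shortest peak was 277 bp in both shFTO lists and 282 to 295 bp in the other lists. Median widths stood not far above these minima, so the contrasts of width in part compare the minima.

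The q-value the authors' peak caller gave each peak separated the lists more sharply. Single-list peaks had a median -log10 q of 4.44 and 4.87 in shALKBH5 replicates 1 and 2, 5.18 and 5.93 in shFTO replicates 1 and 2, and 4.53 and 5.80 in shGFP replicates 1 and 2. The smallest -log10 q in a list lay between 1.30 and 1.40, so these medians were well inside the threshold. Ranked by -log10 q within a list, the median single-list peak stood at percentile 11.5 and 12.9 in shALKBH5, 12.5 and 15.3 in shFTO, and 11.1 and 14.4 in shGFP, where 0 is the weakest peak.

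At the same q a peak was far more often single-list in some lists than in others. Among peaks with a -log10 q under 3, single-list peaks made up 18.9% and 26.5% in shALKBH5 replicates 1 and 2, 14.4% and 38.7% in shFTO replicates 1 and 2, and 30.4% and 26.9% in shGFP replicates 1 and 2. Between 5 and 10 the shares were 5.53% and 11.1% in shALKBH5, 4.45% and 20.1% in shFTO, and 10.6% and 12.3% in shGFP. The replicates of shFTO stood at opposite ends in both ranges, and the shGFP lists lay close together.

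At a -log10 q of 20 or more single-list peaks had nearly vanished. There were 0 among 5844 peaks in shALKBH5 replicate 1, which allows a share of up to 0.0631% (upper limit of the exact 95% interval), and 6 in shALKBH5 replicate 2 (0.0801%). shFTO replicates 1 and 2 had 1 (0.0176%) and 6 (0.0695%), and shGFP replicates 1 and 2 had 1 (0.0147%) and 4 (0.0561%).

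**Figure D3:**
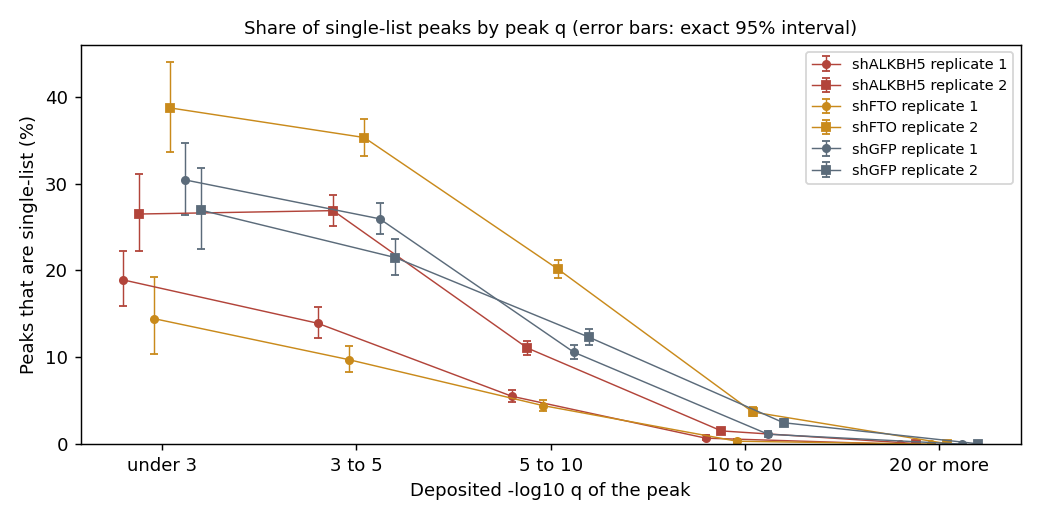
Share of peaks that are single-list (%) against the deposited -log10 q of the peak in 5 ranges, for each list, with exact 95% intervals. Below a -log10 q of 3 the lists spread between 14.4 and 38.7%, and at 20 or more all 6 lie between 0 and 0.0801%.

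The 2-list regions show which lists share the peaks that just miss being single-list. The most frequent pair was shALKBH5 replicate 2 with shFTO replicate 2, the longest lists, which shared 882 regions found nowhere else, more than any pair of replicates. The pair of shFTO replicate 2 with shGFP replicate 1 held 491, and that of shFTO replicate 2 with shGFP replicate 2 held 357. Regions held by both replicates of a group and by no other list numbered 131 in shALKBH5, 218 in shFTO and 329 in shGFP. For each region held by both replicates of a group alone there were 15.5 single-list regions in shALKBH5, 12.2 in shFTO and 7.77 in shGFP. The lowest pair, shALKBH5 replicate 1 with shFTO replicate 1, the shortest lists, held 30.

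Most single-list regions lay far from the regions shared by all lists. The distance between region edges could be measured for 7229 of the 7239, and the other 10 were on sequences without a 6-list region. The median distance to the nearest 6-list region was 32301 and 47327 bp in shALKBH5 replicates 1 and 2, 41783 and 36304.5 bp in shFTO replicates 1 and 2, and 56660 and 23352 bp in shGFP replicates 1 and 2. The 2 control lists held both extremes. Group means of these medians were 39814 bp in shALKBH5, 39043.75 bp in shFTO and 40006 bp in shGFP, and all 3 contrasts had an exact permutation p of 1. Without shGFP replicate 1 the differences were 10270 bp for shALKBH5 minus shGFP and 11189.5 bp for shFTO minus shGFP, and without shGFP replicate 2 they were -18915.75 and -19146 bp.

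Over all lists the median distance was 39338 bp. Of the single-list regions 8.98% lay within 1000 bp of a 6-list region, 20.4% within 5000 bp, 27.9% within 10000 bp, 67.5% within 100000 bp and 97.0% within 1000000 bp. Regions in 2 to 5 lists had shorter medians than single-list regions, given here without a test. The median was 37496 bp for regions in 2 lists, 30225 bp in 3, 26018.5 bp in 4 and 26129 bp in 5, and 9.44%, 9.94%, 10.5% and 11.2% of these were within 1000 bp.

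The share within 1 kb of a 6-list region was 9.41% and 7.33% in shALKBH5 replicates 1 and 2, 6.67% and 9.15% in shFTO replicates 1 and 2, and 6.51% and 14.3% in shGFP replicates 1 and 2. shGFP replicate 2 stood apart from the other lists. Set against the 2-list regions of the same list, the single-list share was lower by 0.93 percentage points on average (mean difference -0.93 ± 2.62, SD, n = 6 lists). It was lower in 4 of 6 lists, with an exact sign-flip permutation p of 0.4375, so the difference was within the spread between lists.

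**Figure D4:**
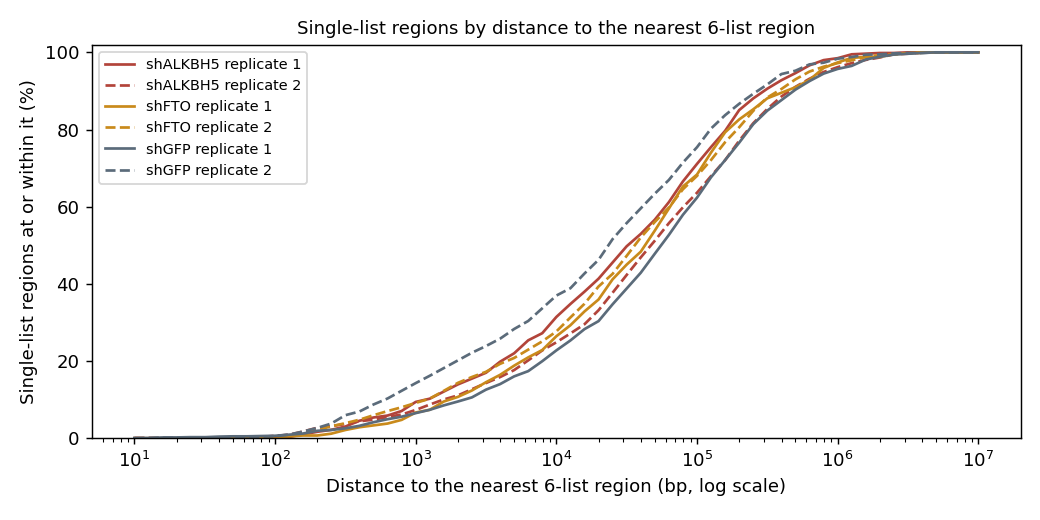
Cumulative share of single-list regions (%) against the distance to the nearest 6-list region (bp, log axis), one line per list, solid for replicate 1 and dashed for replicate 2. Between 1000 and 100000 bp the line of shGFP replicate 2 (median 23352 bp) runs above the others and that of shGFP replicate 1 (median 56660 bp) below them.

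A peak of another list often lay near a single-list region without touching it. The nearest peak of any other list was at a median of 5598 bp, 7.32% of single-list regions had a peak within 200 bp, 26.4% within 1000 bp and 48.4% within 5000 bp. By list the median was 9289 and 6309 bp in shALKBH5 replicates 1 and 2, 5384 and 4344 bp in shFTO replicates 1 and 2, and 8130 and 3922.5 bp in shGFP replicates 1 and 2. On average, peaks of the same group were near a single-list region about as often as peaks of other groups. The other replicate of the same group had a peak within 1 kb of 15.4% of single-list regions on average (SD 4.04), and a list of another group of 14.7% (SD 2.68). The mean difference was 0.66 percentage points over 6 lists (exact sign-flip permutation p = 0.71875). By list it ran between -3.85 in shALKBH5 replicate 2 and 6.90 in shFTO replicate 1, whose other replicates were the shortest and the longest list. With equal list lengths the mean difference was 0.67 percentage points (exact sign-flip permutation p = 0.09375).

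Single-list regions were found on every chromosome. Their share on each of 23 chromosomes (1 to 22 and X) was compared with that of the 6-list regions over the 6 lists, and no chromosome passed an adjusted p of 0.05 in the exact sign-flip permutation test (smallest Benjamini-Hochberg adjusted p 0.144). At the smallest unadjusted exact p the test can give, 0.03125, stood 5 chromosomes. After adjustment over 23 chromosomes none could pass unless many more stood at that value, so the adjusted result cannot decide on single chromosomes. Chromosome 4 held 5.36 to 6.42% of single-list regions, against 4.40% of 6-list regions, and chromosome 2 held 6.93 to 8.06%, against 6.71%. Chromosome 19, rich in genes, held 2.38 to 4.87%, against 5.55%. Chromosome 17 held 3.76 to 5.28%, against 5.38%, and chromosome 20 held 1.43 to 2.34%, against 2.34%, all 6 lists being lower on these 3 chromosomes.

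The X chromosome divided the lists in another way, noticed after its values were seen. It held 2.85% (17 regions, exact 95% interval 1.67 to 4.53%) and 5.44% (78 regions, 4.32 to 6.74%) of single-list regions in shALKBH5 replicates 1 and 2. In shFTO replicates 1 and 2 it held 5.0% (21 regions, 3.12 to 7.54%) and 5.64% (126 regions, 4.72 to 6.68%). The shGFP lists had 2.71% (38 regions, 1.93 to 3.71%) and 2.85% (33 regions, 1.97 to 3.99%). Over all regions of these lists the X share was 3.38% and 3.80% in shALKBH5, 3.70% and 3.96% in shFTO, and 3.58% and 3.40% in shGFP, and among 6-list regions it was 3.38%. Both shFTO lists and 1 of 2 shALKBH5 lists thus lay above the shGFP lists in their single-list regions. The same lists were also above both shGFP lists over all regions, by a smaller margin (3.70 to 3.96%, against 3.40 and 3.58%). No test was made of the difference in single-list regions, since it was chosen for its size. Across the 6 lists, the single-list share on X was higher than the 6-list share in 3 and lower in 3 (exact sign-flip permutation p = 0.281).

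Some single-list regions of a list followed each other at short distance. Regions of 1 list at most 10 kb apart were joined into runs, a step chosen after the regions were seen. There were 313 pairs and 38 runs of at least 3 regions, and in 24 of the 38 no peak of another list lay inside the span. Runs of 2 or more held 7.21% and 10.0% of single-list regions in shALKBH5 replicates 1 and 2, 3.10% and 14.7% in shFTO replicates 1 and 2, and 8.93% and 8.30% in shGFP replicates 1 and 2. Of the 38 longer runs, 1 and 8 were in the shALKBH5 lists, 1 and 20 in the shFTO lists, and 4 and 4 in the shGFP lists. Lists with more single-list regions held at least as many longer runs, though not in proportion. shALKBH5 replicate 2, with 1434 single-list regions, had 8 of them, and shGFP replicate 1, with 1400, had 4.

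The 4 runs of at least 4 regions without a peak of another list in between were in shFTO replicate 2 and shALKBH5 replicate 2. The longest, called run A, was in shFTO replicate 2 at chr7:157288990-157318784 (hg38). Its 6 regions spread over 29795 bp with a fold enrichment between 5.16 and 17.4, the nearest peak of another list was 20908 bp away, and the nearest 6-list region 47132 bp. The region chr7:157300787-157302489 in this run was 1703 bp wide and had the highest fold enrichment, 17.4, and the greatest width of all single-list regions of its list, with a -log10 q of 30.8. Other regions of the run, chr7:157290541-157291079 and chr7:157288990-157289625, had fold enrichments of 15.7 and 13.2.

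Run B was in shALKBH5 replicate 2 at chr19:11041151-11052891. Its 5 regions covered a span of 11741 bp with fold enrichments between 3.57 and 14.0, and the nearest peak of another list, in shFTO replicate 2, was 5458 bp away. It held the 3 single-list regions with the highest -log10 q of that list, with values of 31.9 at chr19:11049751-11050682, 29.4 at chr19:11052408-11052891 and 22.5 at chr19:11046232-11046757. Fold enrichment at these 3 was 14.0, 12.6 and 10.1.

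Run C, with 4 regions of shFTO replicate 2 at chr19:1914770-1920778, differed in lying 1324 bp from a 6-list region, with fold enrichments between 5.55 and 10.3. Run D, with 4 regions of shFTO replicate 2 at chr4:8891993-8908974, had fold enrichments between 5.31 and 9.86 and lay 12558 bp from the nearest peak of another list. None of these 4 runs was in a shGFP list or in a replicate 1 list, but they were chosen for holding no peak of another list. Among all 6 runs of at least 4 regions, 1 was in shGFP replicate 1, at chr15:63953361-63962918, with 5 peaks of other lists inside its span. Runs A to D each rest on 1 list. By the same choice the other replicate of the group had no peak inside the span, and no test applies.

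**Figure D5:**
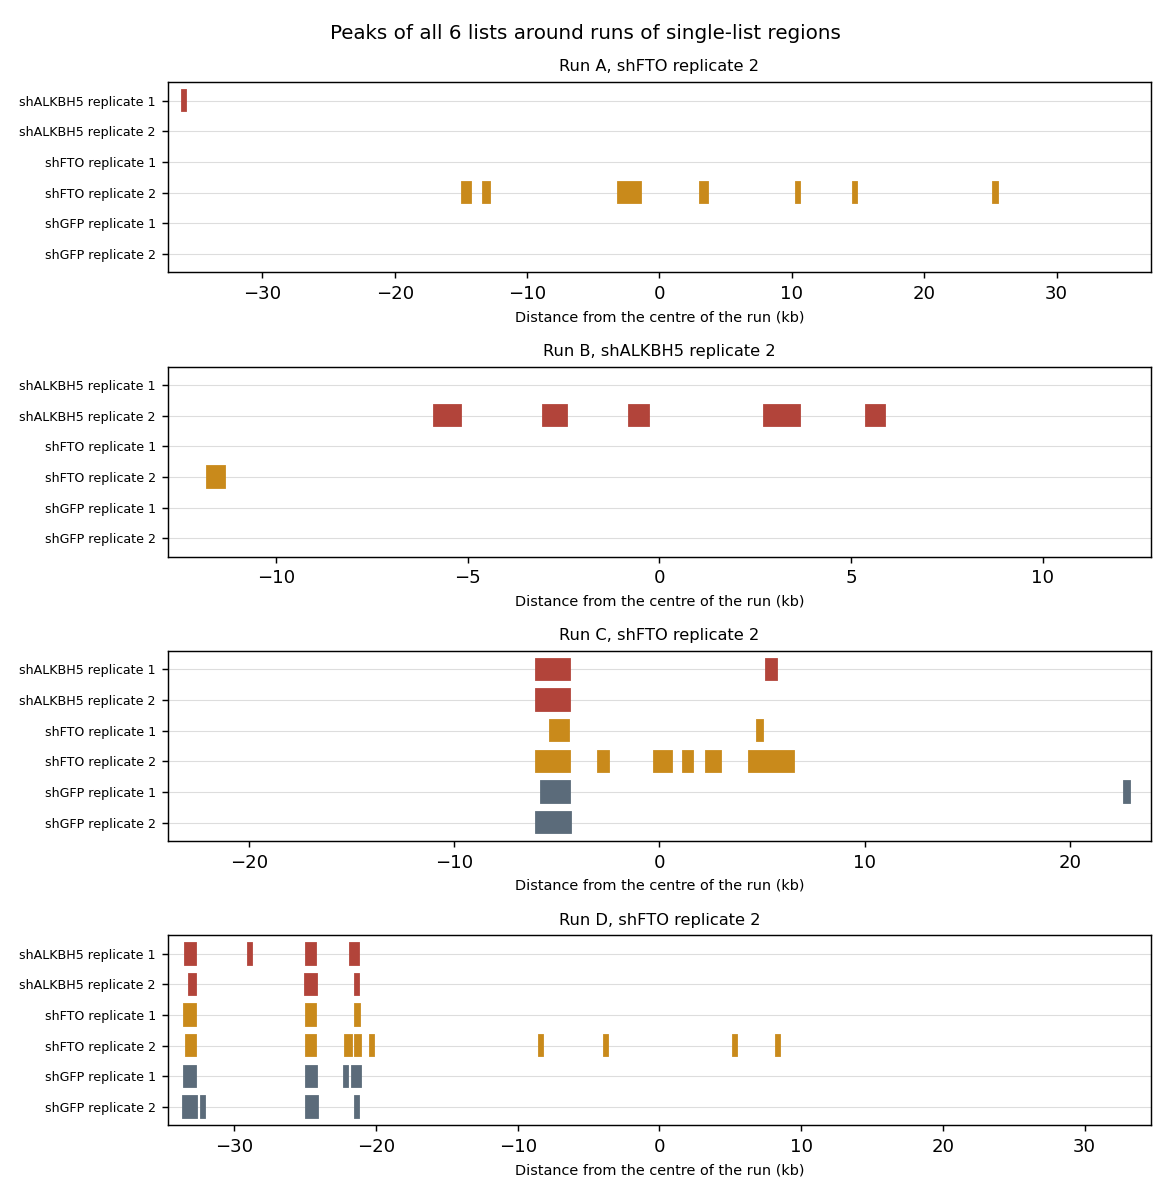
Peaks of all 6 lists (boxes, drawn to scale) around 4 runs of at least 4 single-list regions, against the distance from the centre of the run in kb. In runs A and B the other lists hold at most a single peak in the window shown, and run C begins 1324 bp from a region held by all 6 lists.

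In the other lists the strongest single-list regions were on several chromosomes, some close to shared regions and some far from any peak. In shALKBH5 replicate 1 the highest -log10 q was 17.3, at chr2:127289398-127289888 with a fold enrichment of 7.28, and a peak of shFTO replicate 2 lay 2579 bp away. Its highest fold enrichment, 11.3, was at chr20:63196654-63197013, 5287 bp from a 6-list region. In shFTO replicate 1 the highest -log10 q was 22.5, at chr17:30116707-30117056 with a fold enrichment of 7.68, and the nearest peak of any other list lay 67539 bp away. Its highest fold enrichment, 10.2, was at chr3:40225325-40225721. There a peak of shFTO replicate 2 with a fold enrichment of 8.08 lay 205 bp away without touching it.

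In shGFP replicate 1 the highest -log10 q was 21.7, at chr1:16895744-16896084, where fold enrichment was only 5.0. Its highest fold enrichment, 10.8, was at chr13:92297840-92298848, a region of 1009 bp that was 1778 bp from a peak of shGFP replicate 2. In shGFP replicate 2 the highest -log10 q was 24.5, at chr2:127717143-127717502 with a fold enrichment of 11.2, 1761 bp from a 6-list region. The next in that list, chr17:8518751-8519038 and chr5:473770-474101, were 1942 and 591 bp from 6-list regions. The highest fold enrichment of shGFP replicate 2, 11.5, was on X at chrX:154887580-154887885, 233175 bp from the nearest 6-list region.

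The widest single-list regions were not the strongest in 5 of 6 lists. They measured 912 and 1159 bp in shALKBH5 replicates 1 and 2, 651 and 1703 bp in shFTO replicates 1 and 2, and 1099 and 1224 bp in shGFP replicates 1 and 2. The widest of shGFP replicate 2, chr16:2008294-2009517, had a fold enrichment of 2.91, and the widest of shALKBH5 replicate 2, chr2:117835953-117837111, had 5.63 and lay 409 bp from a 6-list region.

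At the near end of the distances, chr13:49948280-49948618 of shGFP replicate 1 lay 1 bp from a 6-list region, chr16:86490680-86491061 of shALKBH5 replicate 2 lay 8 bp away and chr5:141491115-141491396 of shGFP replicate 2 lay 11 bp away. Such regions count as single-list only because no base was shared. At the far end, on chromosomes 1 to 22 and X without 8, the 3 regions farthest from a 6-list region lay within about the same stretch of chromosome 13. They were chr13:83034414-83034705 of shGFP replicate 1, at 4417355 bp, and chr13:82973085-82974148 and chr13:82971851-82972696 of shGFP replicate 2, at 4356026 and 4354792 bp. All 3 belonged to the control lists, and the last had a fold enrichment of 8.61 over 846 bp. The longest distances in all were on Y, at 11171895 bp in shFTO replicate 2 and 9305308 bp in shALKBH5 replicate 2. Whether peaks on Y were placed correctly was not tested, so these distances may not be real positions.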

How the data were processed

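Per the labels, each list belongs to an immunoprecipitated and an input sample of HEK293T chromatin RNA. The submitters' processing notes name the peak caller MACS2 2.1.1, the aligner HISAT2 2.1.0, Trimmomatic 0.33.0 and build hg38, without saying which step used each. The deposited lists have the narrowPeak layout, with the authors' peak position, an integer score, the fold enrichment over input at the summit, and -log10 p and -log10 q. They have no header line, so the meaning of these columns was taken from that layout. Depth is not given in the files. The authors called 1 list per replicate, per the labels, so lists were the unit of replication, and no columns of other samples were used.

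Peaks were joined with 1 bp of overlap in Python 3.11.15 (pandas 2.3.3, numpy 2.4.6), which gave the same 28815 regions as bedtools 2.31.1. Distances run between region edges. Group contrasts used exact permutation tests over lists, and comparisons within lists used exact sign-flip tests over 6 lists (scipy 1.17.1), two-sided, with Benjamini-Hochberg adjustment over 15 contrasts or 23 chromosomes. Replicate numbers came from the labels, which do not say that a number marks a shared culture or day. The code was tested on simulated lists, and figures were drawn with matplotlib 3.10.9.

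In each list the 3 single-list regions of highest -log10 q, the one of highest fold enrichment and the widest were named (chromosomes 1 to 22 and X without 8), with the 3 nearest to and 3 farthest from a 6-list region. Runs and chromosomes singled out in the text were chosen after their values were seen. The members and lists were chosen with earlier results of these data known.

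Alternatives were a -log10 q of at least 3, equal list lengths, joining peaks up to 200 bp apart or touching, 50% overlap, fewer chromosomes, a replicate block and each list left out. No human genome sequence or annotation was used here, so regions carry no gene names or sequences.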

Additional observations from a re-analysis of the deposited data

Results flagged for a closer look

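The median fold enrichment of single-list peaks lay below the shGFP mean of 5.19 in both shALKBH5 lists (by -0.25 and -0.19) and above it in both shFTO lists (by 0.07 and 0.30). The difference between the shALKBH5 and shFTO means was -0.41, and every list of 1 knockdown moved the opposite way to every list of the other. The direct contrast had an exact permutation p of 0.333, the smallest that 2 lists against 2 allow, and 1 after Benjamini-Hochberg adjustment over 15 contrasts. The shGFP lists themselves stood at 5.0 and 5.37, a gap nearly as wide. In replicate 1 of each group the median was the enrichment value that most single-list peaks of the list shared. Within each knockdown group the longer list had the higher median, and in shGFP the longer list had the lower one. With all lists at equal length the medians were 4.99 and 6.62 in shALKBH5 replicates 1 and 2, 5.26 and 7.55 in shFTO replicates 1 and 2, and 6.28 and 6.24 in shGFP replicates 1 and 2. There the knockdown groups overlapped, with a difference of -0.60 (exact permutation p = 0.667). That setting left shALKBH5 replicate 1 whole and took the peaks of largest q from the other lists. The overlap therefore cannot decide on the difference. Without shFTO replicate 2 the difference was -0.05.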

How the results depend on the processing

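There were 105 recomputed group contrasts (15 contrasts under 7 settings, without those that leave out a list). Of these, 95 kept their direction and 10 in 7 contrasts reversed, all with an exact permutation p of 0.333 or more. The 95 overstate stability. They include the 15 of the replicate block, which could not reverse because pairing leaves a difference of means unchanged. Joining touching peaks also changed little, with 28812 regions in place of 28815. With equal list lengths the single-list count differed by -167.5 (shFTO minus shGFP) and 114 (shALKBH5 minus shFTO), the share by 0.73 percentage points (shALKBH5 minus shFTO), and width by 6.5 bp (shALKBH5 minus shGFP). Equal lengths shortened every list except shALKBH5 replicate 1, and by unequal amounts. The distance contrasts were the least stable. They reversed to 2610.5 bp (shFTO minus shGFP) and -11941 bp (shALKBH5 minus shFTO) with equal lengths. With a -log10 q of at least 3 they reversed to 808.75 and -3234.5 bp for the same contrasts. With peaks up to 200 bp apart joined they were 1400.75 bp (shALKBH5 minus shGFP) and 1065.75 bp (shFTO minus shGFP). The cause was not tested. The single-list share of all regions was 23.1% with equal lengths, 24.0% with peaks 200 bp apart joined and 7.0% at 50% overlap, which counts peaks in place of regions. Equal lengths gave ratios of single-list to 6-list medians of 0.518 for fold enrichment and 0.484 for width. Runs of at least 3 numbered 23 at a gap of 5 kb and 61 at 20 kb, a choice made after seeing the data, as were touching peaks and the settings of the chromosome comparison.

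Leaving out a list redefined the members as regions in exactly 1 of the remaining lists, so some 2-list regions became single-list. The regions they were compared with were then those in all remaining lists. Leaving out each list in turn gave a single-list share of 25.8 to 27.4% and, for shALKBH5 minus shGFP, shFTO minus shGFP and shALKBH5 minus shFTO in this order, differences in count of -785.5 to 156.5, -1070.5 to 1097.5 and -1383 to 973.5. Differences in share were -3.55 to 0.36, -5.05 to 3.99 and -5.47 to 4.51 percentage points. Differences in median fold enrichment were -0.42 to -0.04, -0.044 to 0.35 and -0.56 to -0.05 (reversed only at -0.044, without shGFP replicate 1). Differences in width were -13.5 to 0, -29.5 to 5 and -10 to 29.5 bp. Differences in distance were -18915.75 to 10270, -19146 to 11189.5 and -8181.5 to 5867 bp. The gap between the same group and other groups in nearby peaks was -1.08 to 2.51 percentage points, and reversed without shFTO replicate 1. Pairing lists by replicate number (replicate block) left each difference as it was by construction, -263 in count for shALKBH5 minus shGFP (exact sign-flip p = 1). With 2 pairs the smallest exact sign-flip p is 0.5, so no call could change. With 2 pairs per contrast the labels alone could show pairing, and they do not. The sequence motif and annotation comparisons were not run, for want of a human genome here. Depth behind the peaks is unknown, so no limit from it can be given.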

Other observations

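Outside chromosomes 1 to 22 and X, 10 single-list regions lay on Y, 1 on the mitochondrial sequence and 24 on unplaced or alternative sequences. The Y regions came from shALKBH5 replicate 2 (5), shFTO replicates 1 and 2 (2 each) and shGFP replicate 1 (1). Regions of all kinds on Y were not counted here, so no share stands beside these numbers. The placement of peaks on Y was not tested. In single-list peaks the summit lay at a median of 46.4 to 49.9% of the peak's length across the 6 lists. The position varied widely within each list, with lower quartiles of 32.5 to 35.8% and upper quartiles of 59.6 to 63.1%.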
